A study of Mus musculus with 48 samples.

Results

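The S100 genes encode small proteins of the EF-hand type. Most of them bind calcium, pair with themselves or with each other, and bind partner proteins when calcium rises. The 8 members described here, *S100a1*, *S100a4*, *S100a6*, *S100a8*, *S100a9*, *S100a10*, *S100a11*, and *S100a13*, were taken by name from the 54735 genes counted in each library. In myeloid cells the best known are *S100a8* and *S100a9*, whose products form calprotectin, a complex abundant in neutrophils and in monocytes fresh from the blood and low in mature tissue macrophages. Calprotectin binds zinc and manganese ions and, once released, is recognized by TLR4 and by the receptor AGER. *S100a4* and *S100a6* encode regulators of the cytoskeleton, *S100a10* and *S100a11* partners of annexins, *S100a13* a carrier in the release of FGF1 and IL-1α, and *S100a1* a calcium-handling protein best known from muscle.

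RNA-seq was performed on monocytes (Ly6Glo CD11bhi F4/80-), red pulp macrophage precursors (pre-RPMs, CD11bhi F4/80lo), and red pulp macrophages (RPMs, CD11blo/- F4/80hi), the macrophages of the spleen that take up old erythrocytes and recycle their iron. The cells were sorted from spleens of untreated male Balb/c mice 10 weeks old, either wild type (WT) or labelled *Il1rl1*-/-, which should lack the IL-33 receptor in all cells. There were 4 mice per genotype and 1 library for each cell type of each mouse, 24 libraries in 6 groups, so that each library came from a single animal. The study asked how IL-33 signaling affects the path from monocyte to RPM.

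Total counts ranged from 3562367 to 6559454 per library, and 3 counts corresponded to 0.449 to 0.892 CPM (read counts scaled to a common library size), the precision behind the lowest levels. The CPM of *Il1rl1* was 1.95 to 4.28 in WT monocytes and 12.6 to 15.4 in monocytes labelled *Il1rl1*-/-, and 3.19 to 5.71 and 11.8 to 12.9 in pre-RPMs. In RPMs it was 1.06 to 3.00 CPM in WT and 0.224 to 1.28 in libraries labelled *Il1rl1*-/-, lower on average but overlapping, at 1 to 13 counts. The counted level of the targeted gene was thus higher under the mutant label in monocytes and pre-RPMs and not in RPMs. Counts over a whole gene cannot show whether a deleted part of it is absent. Each genotype difference below therefore compares libraries by their labels. RPM marker genes such as *Spic* and *Vcam1*, 10 in all, summed to 6438 to 8199.7 CPM in WT RPMs, to 8669.7 to 8976 in RPMs labelled *Il1rl1*-/-, and to 308.4 at most in the other libraries, and 5 markers of classical monocytes to 472 to 1223 CPM in monocytes and pre-RPMs and to 55.6 at most in RPMs. Markers of other cells were also counted: the 5 NK cell markers reached 466 to 1745 CPM in monocytes and 129.9 at most elsewhere, and the 5 erythroid markers reached 644 to 20325 CPM in RPMs. In bulk samples, fewer cells of a type and less RNA per cell cannot be told apart.

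All 8 genes lie on chromosome 3 of GRCm38, in a pair of stretches. The first runs over 184688 bases and holds *S100a1* (ENSMUSG00000044080, 90511034 to 90514392, minus strand), *S100a13* (ENSMUSG00000042312, 90514435 to 90524581, plus), *S100a4* (ENSMUSG00000001020, 90603771 to 90606045, plus), *S100a6* (ENSMUSG00000001025, 90612882 to 90624181, plus), *S100a8* (ENSMUSG00000056054, 90668978 to 90670035, plus), and *S100a9* (ENSMUSG00000056071, 90692632 to 90695721, minus). The second, 2824766 bases farther, holds *S100a11* (ENSMUSG00000027907, 93520488 to 93526287, plus) and *S100a10* (ENSMUSG00000041959, 93555080 to 93564643, plus). *S100a1* and *S100a13* face away from each other, with 42 bases between their starts, and *S100a8* and *S100a9* are 22596 bases apart. Of the 584 exon bases of *S100a4*, 302 are shared on the same strand with *Gm42674*, and featureCounts by default leaves read pairs that overlap both uncounted, so the level of *S100a4* may be too low. The exons of the other 7 members overlap no other gene. The files hold 9 further S100 genes, none of which exceeded 3 counts in any library.

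Promoter sequence was matched in RefSeq (GRCm38.p6) for 7 of the 8 members, and 4 stretches are shown because their genes move together or apart in what follows: *S100a8* and *S100a9*, the members called lower already in pre-RPMs, *S100a4*, which was not, and the gap from which *S100a1* and *S100a13* are read in opposite directions. The first 3 are read 5′ to 3′ on the strand of the gene and the gap on the plus strand, and capitals mark the motifs found in the 250 bases before each start, on either strand.
S100a8, 41 to 12 bases before the start (chr3:90669030-90669059): aagctTTCCTCTATAAAagcagctgacact
S100a9, 140 bases before the start (chr3:90695722-90695861): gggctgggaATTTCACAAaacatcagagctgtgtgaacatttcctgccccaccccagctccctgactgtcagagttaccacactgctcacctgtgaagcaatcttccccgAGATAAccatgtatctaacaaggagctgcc
S100a4, 60 bases before the start (chr3:90603710-90603769): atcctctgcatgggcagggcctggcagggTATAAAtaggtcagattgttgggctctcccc
Gap between S100a1 and S100a13 (chr3:90514393-90514434): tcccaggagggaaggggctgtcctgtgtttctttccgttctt
A TATA box, searched as TATAAA, lay 30 bases before the start of *S100a8* and 31 before that of *S100a4*, against 13.6% of 22862 RefSeq promoters that hold one within 250 bases. In *S100a8* it directly follows a PU.1 core, GAGGAA, on the opposite strand, and a second PU.1 core starts at −170, counted from the start, (23.0% of promoters hold one). *S100a9* held neither, but a GATA core, AGATAA, at 30 bases (10.4% of promoters) and a C/EBP core, TTNNGNAAT, on the opposite strand at 131 bases (10.6%). An AP-1 site, TGANTCA (6.96% of promoters), was found only for *S100a11* among the 7, with matches 136 and 38 bases before its start, beside a PU.1 core at −153 and a GATA core on the opposite strand at −248. No motif overlapped another. None of the 5 motifs was found in the 250 bases before *S100a1*, *S100a6*, or *S100a13*. The printed bases of *S100a8* lie inside an exon of the Ensembl gene, which starts upstream of the RefSeq one, and the sequence of *S100a10* is not shown. A match is a description of letters, not of binding.

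*S100a8* and *S100a9* were by far the most abundant members in monocytes and the first to fall. In WT monocytes of mice 1 to 4, the CPM of *S100a8* was 528, 216, 274, and 114, and that of *S100a9* was 814, 454, 565, and 257. In WT pre-RPMs, *S100a8* was at 15.8, 17.3, 20.8, and 17.4 CPM, and *S100a9* at 35.3, 29.4, 46.8, and 24.7 CPM. Each monocyte library was higher than every pre-RPM library in both genes, and mouse 1 had the highest monocyte level of both. *S100a8* fell 15.8-fold (log2 fold change −3.99, SE 0.40, adjusted p = 0.000341) and *S100a9* 15.3-fold (−3.94, SE 0.34, adjusted p = 0.00020), by the quasi-likelihood test of edgeR, adjusted by Benjamini-Hochberg over all genes, as for every adjusted p below. Between cell types, a gene was called at an adjusted p under 0.01 and a fold change above 2.

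The same genes fell between monocytes and pre-RPMs labelled *Il1rl1*-/-. *S100a8* was at 139, 357, 224, and 320 CPM in monocytes and at 17.5, 26.6, 35.4, and 28.9 CPM in pre-RPMs, and *S100a9* at 313, 744, 462, and 622 CPM and at 35.5, 47.7, 82.4, and 62.6 CPM. The groups did not overlap, and the log2 fold changes were −3.26 (SE 0.29, adjusted p = 4.74e-05) and −3.23 (SE 0.29, adjusted p = 5.11e-05). These were 2 of the 8 members called in each genotype, both lower, when 3.25% of 11091 genes were called lower in WT and 3.88% of 11196 in cells labelled *Il1rl1*-/-. The median log2 fold change over the 8 members was −0.30 in WT and −0.38 in cells labelled *Il1rl1*-/-, beside 0.01 and −0.0018 over all genes. No member differed between the genotypes in this change, as an interaction (0% of 11960 genes called by edgeR, 454 at an unadjusted p under 0.05 and none of them a member), and the differences were 0.72 (SE 0.52) for *S100a8* and 0.70 (SE 0.46) for *S100a9* on the log2 scale, both with an adjusted p of 1.

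**Figure D1:**
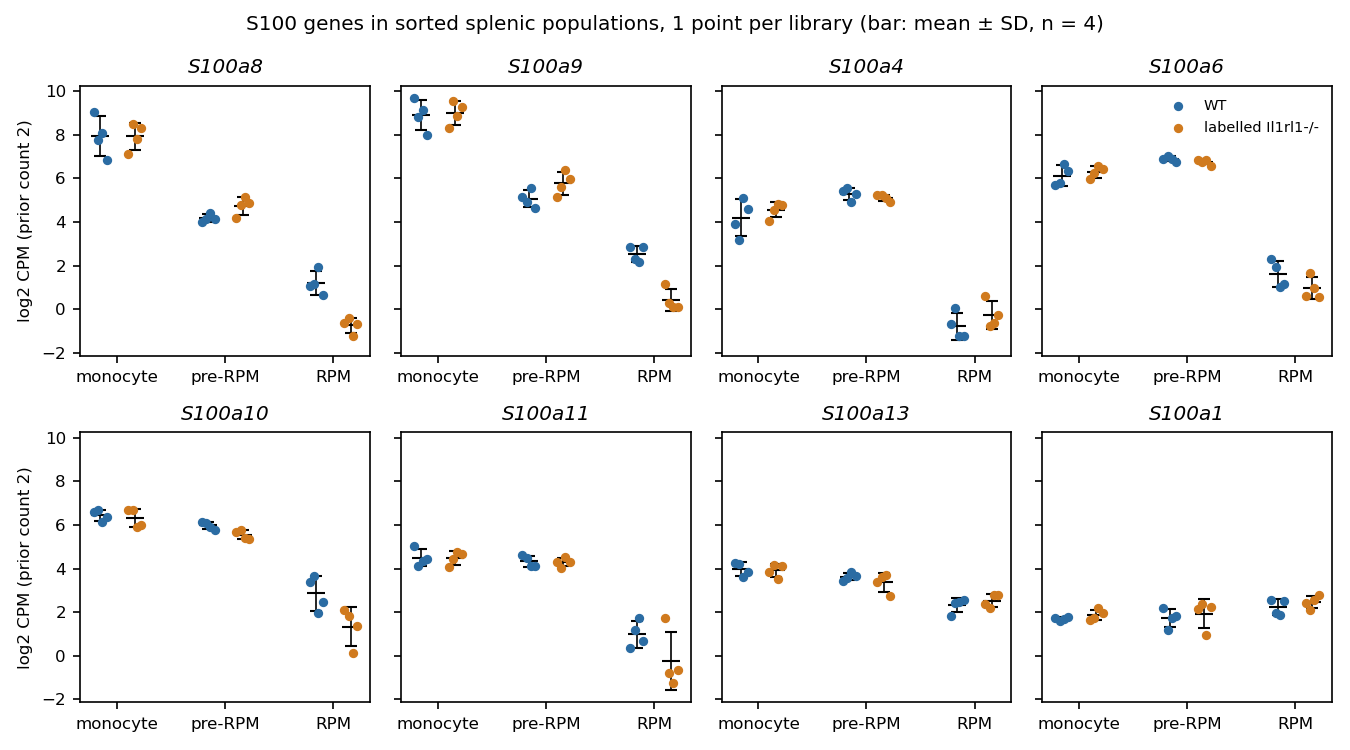
Normalized level of the 8 S100 genes (log2 CPM with a prior count of 2, vertical axis) in monocytes, pre-RPMs, and RPMs, with 1 point per library, WT in blue and libraries labelled Il1rl1-/- in orange, and bars for the mean ± SD of 4 libraries. S100a8 and S100a9 fall from monocytes to pre-RPMs, S100a4, S100a6, S100a10, and S100a11 from pre-RPMs to RPMs, and S100a1 stays at low levels in all groups.

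Some neutrophil genes moved beside them and others did not. Of 10 neutrophil markers, the granule genes *Ngp*, *Ltf*, and *Camp* were called lower in WT pre-RPMs than in monocytes, with log2 fold changes of −3.87, −3.98, and −3.58 (SE 0.50, 0.51, and 0.35, edgeR's adjusted p = 0.000812, 0.000739, and 0.000298). *Retnlg*, which is also expressed by neutrophils, was called higher (2.83, SE 0.44, edgeR's adjusted p = 0.00222), and the other 5 tested were not called. In cells labelled *Il1rl1*-/-, *Ngp*, *Ltf*, *Camp*, *Ly6g*, and *Cxcr2* were called lower and *Retnlg* higher. *Cd177* was at 70.8 ± 40.8 CPM in WT monocytes and 87.8 ± 21.8 CPM in WT pre-RPMs (mean ± SD, n = 4), and *Mmp8* at 18.4 ± 7.78 and 19.7 ± 6.66 CPM. The sum over the 10 markers was 462 to 1318 CPM in WT monocytes and 235 to 352 CPM in WT pre-RPMs, and none of the 10 was at 0 throughout a monocyte or pre-RPM group. The part of neutrophil RNA in the fall of *S100a8* and *S100a9* was not tested. *Ly6g*, whose protein the monocyte gate used to leave neutrophils out, was at 7.39 ± 4.42 CPM in WT monocytes and 0.303 ± 0.464 CPM in WT pre-RPMs (mean ± SD, n = 4). In the paper's flow cytometry, monocytes, pre-RPMs, and RPMs were all counted among cells low in Ly6G and NK1.1.

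**Figure D2:**
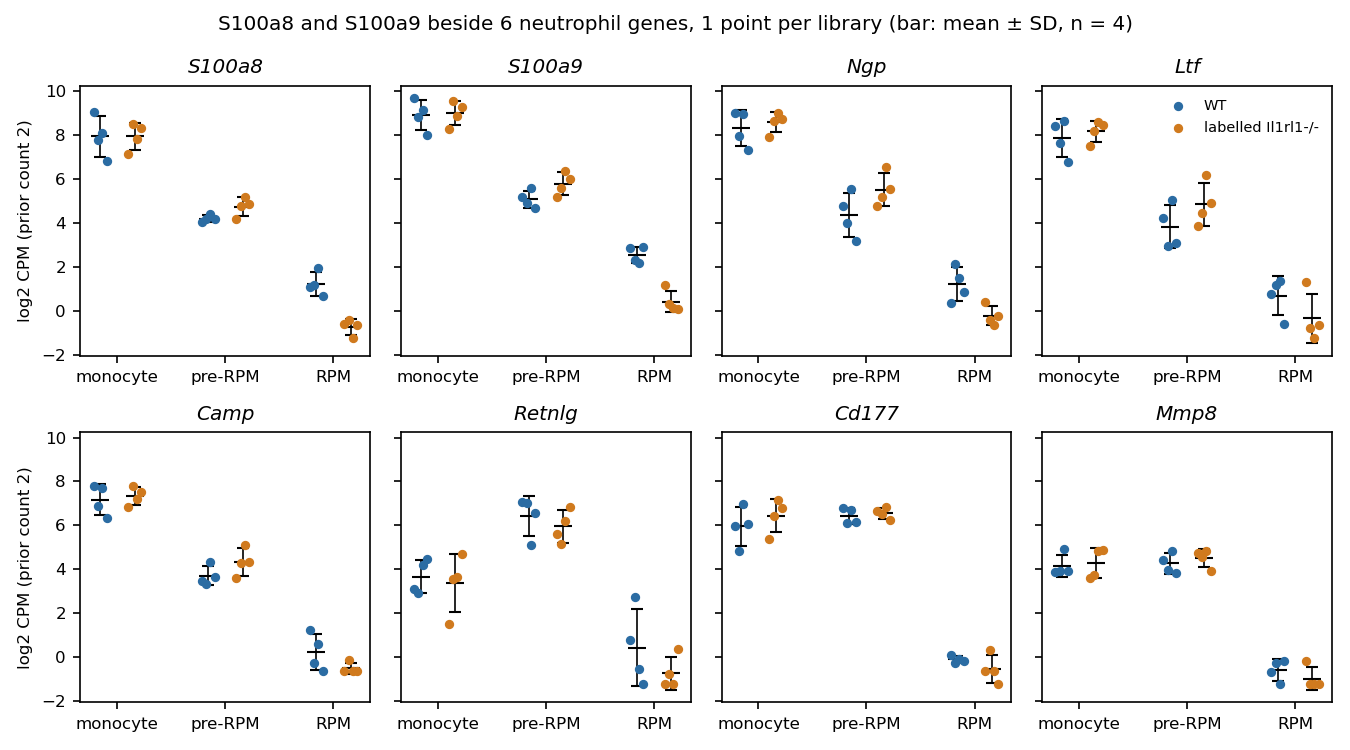
Levels of S100a8 and S100a9 and of 6 of the 10 neutrophil markers (log2 CPM with a prior count of 2, vertical axis) by cell type, 1 point per library with the mean ± SD of 4 libraries, WT in blue and libraries labelled Il1rl1-/- in orange. Ngp, Ltf, and Camp fall from monocytes to pre-RPMs beside S100a8 and S100a9, Retnlg is higher in pre-RPMs, and Cd177 and Mmp8 were not called between them in either genotype.

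The ratio of *S100a8* to *S100a9* counts varied less between mice than their levels in monocytes. On a log2 scale, with 0.5 added to each count, it was −0.98 ± 0.25 in WT monocytes, −1.06 ± 0.09 in monocytes labelled *Il1rl1*-/-, −0.90 ± 0.32 in WT pre-RPMs, and −1.05 ± 0.16 in their counterparts labelled *Il1rl1*-/- (mean ± SD, 4 libraries each). The log2 CPM of the same genes had SDs of 0.91 and 0.69 in WT monocytes, but of 0.16 and 0.39 in WT pre-RPMs. In RPMs, where the counts were few, the ratio was −1.46 ± 0.98 and −1.92 ± 0.86 (mean ± SD, n = 4). Its spread there is not compared with that of the levels, since log2 CPM had a prior count of 2 and the ratio 0.5. The ratio in libraries labelled *Il1rl1*-/- relative to WT differed by −0.08 in monocytes (exact 2-sided permutation test, p = 0.80), −0.15 in pre-RPMs (exact p = 0.457), and −0.46 in RPMs (exact p = 0.514), and 0.0286 is the smallest p that 4 against 4 libraries allow. Over the 24 libraries, the gene whose log2 CPM was most like that of *S100a8* was *S100a9* (Pearson's r = 0.992), followed by *Camp* (0.988) and *Ngp* (0.985), and for *S100a9* these were *S100a8*, *Ngp* (0.985), and *Lcn2* (0.983), all neutrophil granule genes besides the members. These correlations include the differences between cell types. As deviations from the group means in the 16 monocyte and pre-RPM libraries, *S100a8* and *S100a9* correlated at r = 0.929, and *S100a9* with *Camp* at 0.913. The points share libraries and their depth, and the values are given as a description.

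*S100a4* and *S100a6* did not fall with *S100a8* and *S100a9*. In WT monocytes *S100a4* was at 14.5, 8.59, 33.7, and 23.97 CPM and in WT pre-RPMs at 42.1, 46.7, 29.9, and 39.02 CPM, so that mouse 3 overlapped. *S100a6* was at 50.6, 54.3, 101.8, and 80.6 CPM in WT monocytes and at 117.2, 130.4, 118.3, and 107.3 CPM in WT pre-RPMs, with no overlap. Neither was called, since the log2 fold changes were 0.97 (SE 0.32, adjusted p = 0.0634) for *S100a4* and 0.72 (SE 0.20, adjusted p = 0.0377) for *S100a6*. Without the WT monocyte library of mouse 3, the change of *S100a4* was called (1.31, edgeR's adjusted p = 0.00464). In libraries labelled *Il1rl1*-/-, neither gene's groups overlapped, with 16.2 to 28.0 CPM in monocytes and 29.8 to 37.1 in pre-RPMs for *S100a4*, and 61.8 to 94.7 and 95.8 to 114.5 CPM for *S100a6*. The log2 fold changes of 0.54 (SE 0.16, adjusted p = 0.0367) and 0.45 (SE 0.13, adjusted p = 0.0324) also missed the threshold. The remaining 4 members moved by less than 2-fold without a call, and *S100a10* had the lowest log2 fold changes of these, −0.46 (SE 0.15) in WT and −0.79 (SE 0.19) in cells labelled *Il1rl1*-/-.

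Between pre-RPMs and RPMs nearly all members fell. In WT, 7 of the 8 were called and all 7 were lower in RPMs, when 10.7% of 11239 genes were called lower. In cells labelled *Il1rl1*-/-, 6 of the 8 were called, all lower, when 11.5% of 11437 genes were. The median log2 fold change over the 8 members was −3.12 in WT and −5.28 in cells labelled *Il1rl1*-/-, beside −0.0012 and −0.0018 over all genes. The RPM list rose over the same step, with 10 of 10 markers called higher in each genotype, as did all 5 erythroid markers, and all 8 neutrophil markers tested fell. The part of erythroid or neutrophil RNA in this step was not tested.

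*S100a4* and *S100a6*, at their highest in pre-RPMs, fell the most among WT cells. *S100a4* had 181, 178, 122, and 164 counts in WT pre-RPMs and 1, 3, 0, and 0 in WT RPMs. Since no RPM library exceeded 3 counts, its fall is given as the ratio of the summed counts per effective library size, which was 174 (exact 95% interval from 67.7 to 641, counting error only), with edgeR's adjusted p = 9.87e-10. *S100a6* had 504, 497, 483, and 451 counts in WT pre-RPMs and 21, 17, 6, and 8 in WT RPMs, a fall of 41.5-fold (log2 fold change −5.37, SE 0.21, adjusted p = 1.51e-10). In cells labelled *Il1rl1*-/-, the log2 fold changes were −6.21 (SE 0.27, adjusted p = 3.05e-11) for *S100a4* and −6.02 (SE 0.18, adjusted p = 6.88e-13) for *S100a6*. The fitted change of *S100a4* was −8.55 without the WT RPM library of mouse 2 and −6.96 without the RPM library of mouse 1 labelled *Il1rl1*-/-, which held 3 and 5 of the few counts. Over the 24 libraries, *S100a4* was most like *Cask* (r = 0.992), *Rasgrp4* (0.990), and *Ncf4* (0.989), and *S100a6* most like *Ccl9* (0.996), *Serpinb10* (0.994), and *Rgs14* (0.992).

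The annexin partners *S100a10* and *S100a11* followed. WT pre-RPMs had 70.2, 68.2, 60.0, and 54.5 CPM of *S100a10*, and WT RPMs 10.2, 12.01, 3.47, and 5.08 CPM, with mice 3 and 4 lower than mice 1 and 2 in RPMs. Its log2 fold change was −3.04 (SE 0.25, adjusted p = 1.42e-07) in WT and −4.30 (SE 0.24, adjusted p = 5.92e-10) in cells labelled *Il1rl1*-/-. *S100a11* fell from 19.8 ± 3.63 to 1.69 ± 0.926 CPM in WT (mean ± SD, n = 4; log2 fold change −3.61, SE 0.28, adjusted p = 1.06e-07) and by 4.66 on the log2 scale (SE 0.47, adjusted p = 5.41e-07) in cells labelled *Il1rl1*-/-. There the RPM libraries had 13, 1, 0, and 1 counts, and without mouse 1, which held most of them, the change was −6.99. The genes most like *S100a10* over the 24 libraries were *Psd4* (r = 0.990), *Cd52* (0.990), and *Cnn2* (0.985), and those most like *S100a11* were *Foxred2* (0.972), *Arhgdib* (0.968), and *Gramd4* (0.968).

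*S100a8* and *S100a9* fell a second time at this step. *S100a8* had 68, 66, 85, and 73 counts in WT pre-RPMs and 8, 9, 13, and 5 in WT RPMs (log2 fold change −3.19, SE 0.25, adjusted p = 1.18e-07). *S100a9* had 152, 112, 191, and 104 counts and then 32, 22, 15, and 30 (−2.65, SE 0.23, adjusted p = 2.76e-07). In cells labelled *Il1rl1*-/-, *S100a8* went from 74, 157, 119, and 155 counts to 1, 2, 0, and 1, a ratio of 132.8 between the summed counts per effective library size (exact 95% interval from 51.6 to 489.3, counting error only). *S100a9* went from 150, 281, 277, and 336 counts to 8, 5, 3, and 3 (−5.90, SE 0.34, adjusted p = 7.25e-10). The groups did not overlap in either gene or genotype, and the last WT step left *S100a9* as the most abundant member per kilobase of exon in RPMs, at 10.6 ± 2.91 CPM per kb (mean ± SD, n = 4).

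**Figure D3:**
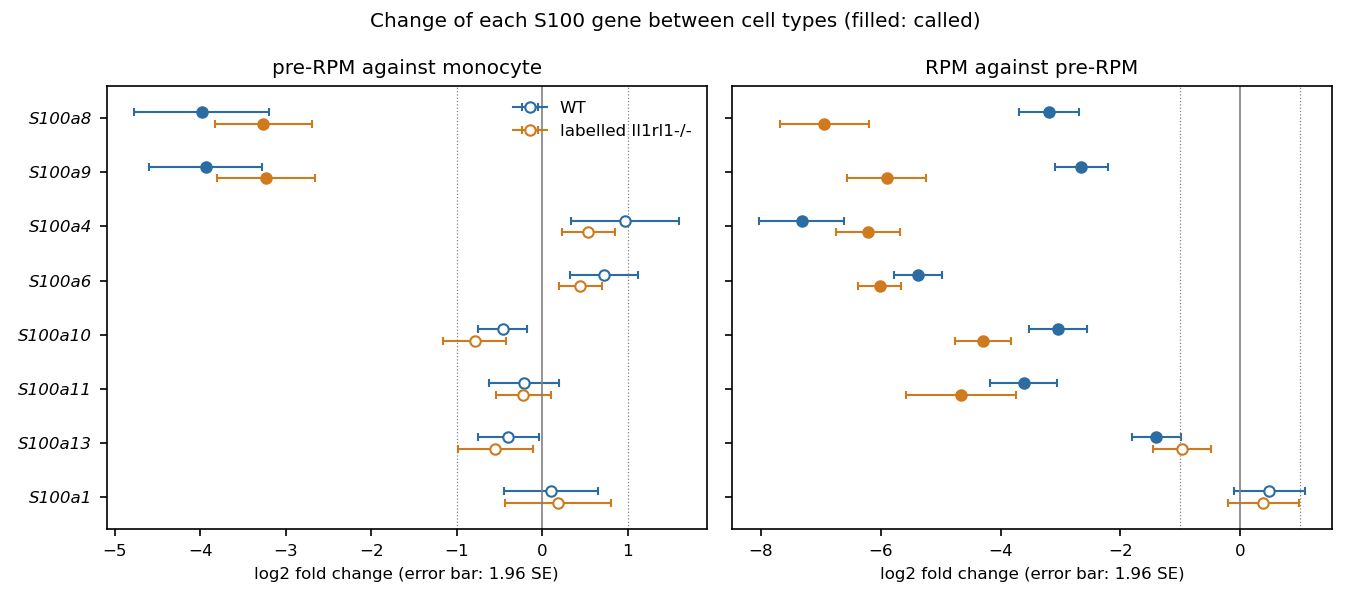
Log2 fold change of each S100 gene (horizontal axis) from monocytes to pre-RPMs and from pre-RPMs to RPMs, WT in blue and cells labelled Il1rl1-/- in orange, with error bars for the 95% interval, filled points for called genes, and dotted lines at a 2-fold change. In the first step the called points are those of S100a8 and S100a9, and in the second step S100a1 is the one gene not called in either genotype.

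*S100a13* and *S100a1*, read from the same 42-base gap, parted. *S100a13* was at 10.5, 11.3, 13.7, and 12.4 CPM in WT pre-RPMs and at 3.18, 4.89, 5.08, and 5.54 CPM in WT RPMs, a called fall of 2.65-fold (log2 fold change −1.40, SE 0.21, adjusted p = 5.85e-05). In cells labelled *Il1rl1*-/- it was at 10.2, 11.9, 12.8, and 6.34 CPM and then 4.71, 4.09, 6.58, and 6.39 CPM, where the pre-RPM library of mouse 4 lay within the RPM values. The log2 fold change there was −0.97 (SE 0.25, adjusted p = 0.00388), just under the 2-fold threshold, and it was called without that library (−1.16, edgeR's adjusted p = 0.000647), without the RPM library of mouse 3 (−1.07, edgeR's adjusted p = 0.00449), or without that of mouse 4 (−1.06, edgeR's adjusted p = 0.00476). *S100a1* was at 2.81 ± 0.176 CPM in WT monocytes, 3.01 ± 0.961 in WT pre-RPMs, and 4.37 ± 1.21 in WT RPMs, and at 3.31 ± 0.616, 3.64 ± 1.46, and 5.18 ± 1.03 CPM in cells labelled *Il1rl1*-/- (mean ± SD, n = 4). It passed in no comparison, with 5 to 30 counts per library, and its log2 fold change from monocytes to RPMs was 0.61 (SE 0.25, adjusted p = 0.0703) in WT and 0.63 (SE 0.25, adjusted p = 0.0513) in cells labelled *Il1rl1*-/-. The genes most like *S100a1* reached lower correlations than those of any other member (*Col20a1*, r = 0.794), and the best match of *S100a13* was *Klf3* (0.930).

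Over the whole path from monocytes to RPMs, the same 7 members were called in both genotypes, all lower, when 10.5% of 11607 genes were called lower in WT and 11.6% of 11633 in cells labelled *Il1rl1*-/-. *S100a8* went from 114 to 528 CPM in WT monocytes to 5 to 13 counts in WT RPMs (a fall with a log2 fold change −7.15, SE 0.55, adjusted p = 1.89e-06). The log2 fold change was −6.56 (SE 0.39, adjusted p = 2.74e-07) for *S100a9* and −4.63 (SE 0.33, adjusted p = 1.19e-06) for *S100a6*. *S100a4*, with 445 counts in WT monocytes and 4 in WT RPMs, is given as a ratio of 87.2 (exact 95% interval from 33.8 to 321.6, counting error only, adjusted p = 2.61e-05), and its fitted change moved from −6.35 to −7.62 without the RPM library of mouse 2, so that its place in the order is not fixed. In monocytes labelled *Il1rl1*-/-, the 4861 counts of *S100a8* compared with 4 in RPMs, a ratio of 1315 (exact 95% interval from 513.4 to 4829, counting error only). The lowest called change was that of *S100a13*, at −1.77 (SE 0.22, adjusted p = 7.49e-05) in WT and −1.46 (SE 0.22, adjusted p = 0.000121) in cells labelled *Il1rl1*-/-.

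The make-up of the S100 transcripts differed by cell type. Per kilobase of exon, the 8 members together reached 1638 CPM per kb in WT monocytes, 357 in WT pre-RPMs, and 38.5 in WT RPMs. *S100a9* and *S100a8* made up 61.1% and 24.9% of it in WT monocytes. In WT pre-RPMs *S100a6* (24.2%), *S100a4* (18.9%), and *S100a9* (18.3%) led, at 86.5 ± 6.93, 67.5 ± 12.2, and 65.3 ± 18.3 CPM per kb (mean ± SD, n = 4), where the last 2 were within each other's spread. In pre-RPMs labelled *Il1rl1*-/-, *S100a9* (28.6%) came before *S100a6* (20.7%) and *S100a4* (15.4%). In WT RPMs *S100a9* (27.6%) was followed by *S100a13* (17.0%), *S100a10* (16.5%), and *S100a1* (16.4%), whose mean levels of 6.53, 6.34, and 6.30 CPM per kb did not differ beyond their spread. In RPMs labelled *Il1rl1*-/-, *S100a13* (33.3%) and *S100a1* (32.7%) came first and *S100a9* made up 8.19%. In 7 of the 8 genes the lowest means of the 6 groups were those of the 2 RPM groups, the exception being *S100a1*, in which all neighbours in the order overlapped. Groups of the same cell type overlapped in every gene except *S100a8* and *S100a9* in RPMs.

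**Figure D4:**
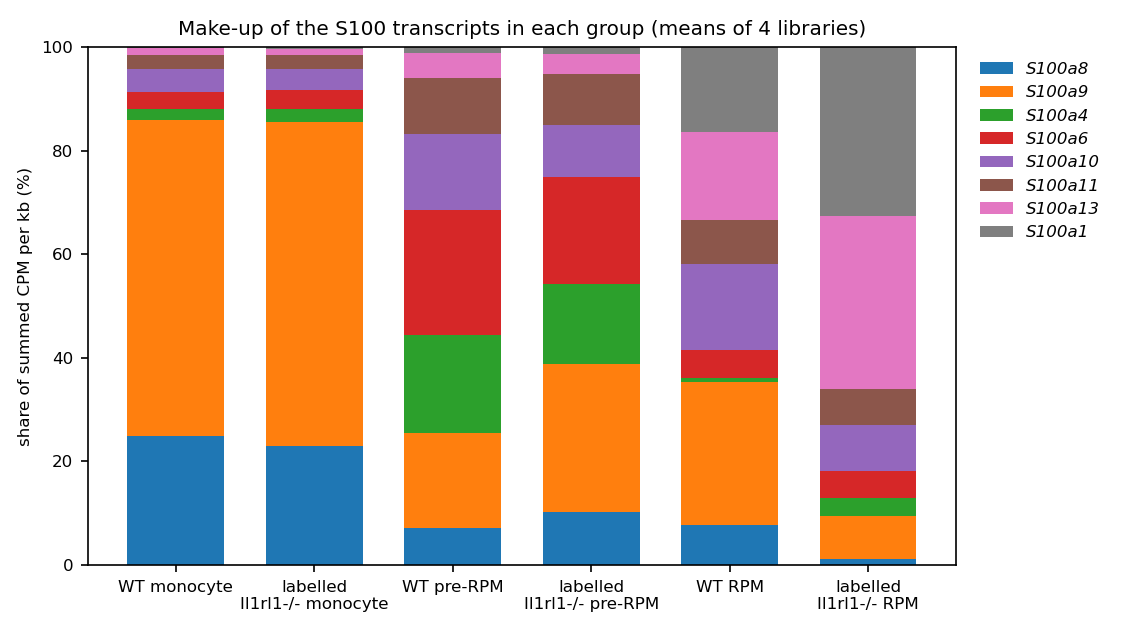
Share of each S100 gene in the summed CPM per kilobase of exon of the 8 genes (vertical axis, %), as means of 4 libraries in each of the 6 groups. S100a8 and S100a9 take most of the bar in monocytes (61.1% and 24.9% are those of S100a9 and S100a8 in WT), S100a4 and S100a6 take larger shares in pre-RPMs than in the other cell types, and S100a1 and S100a13 in RPMs labelled Il1rl1-/-.

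No member was called between genotypes before the RPM stage in the main fits, which had a filter on low counts, no block, and every library of the groups. In monocytes, 0 of the 8 members were called at an adjusted p under 0.05, when 7 of 11405 genes (0.0614%) were. The log2 fold changes lay between −0.12 and 0.23, and no member passed an unadjusted p of 0.05. For *S100a9* the difference was 0.03 (95% interval from −0.65 to 0.71, from the SE), and for *S100a8* it was −0.12 (−0.96 to 0.71). Differences within these intervals were not excluded with 4 against 4 mice. In pre-RPMs, 0 of the 8 were called, when 59 of 10698 genes (0.552%) were. At an unadjusted p under 0.05 stood *S100a8* (0.59, SE 0.17, adjusted p = 0.219), *S100a9* (0.73, SE 0.22, adjusted p = 0.228), and *S100a10* (−0.43, SE 0.12, adjusted p = 0.172), and the groups overlapped in all 3. All 3 were called when the fit had the mouse number as a block, at 0.58 (edgeR's adjusted p = 0.0330), 0.72 (edgeR's adjusted p = 0.0212), and −0.43 (edgeR's adjusted p = 0.0135). That block pairs different animals of WT and mutant-labelled groups by their number, and the numbers did not meet the criterion for pairing in pre-RPMs. Without a block, all 3 were also called when every gene with at least 1 count was tested. Without the pre-RPM library of mouse 1 labelled *Il1rl1*-/-, *S100a8* was called (0.75, edgeR's adjusted p = 0.0340). NK cell markers were lower in pre-RPMs labelled *Il1rl1*-/- than in WT (3 of 4 tested called, 11.7 to 47.0 against 63.5 to 130 CPM summed over 5), as were 2 of 5 B cell markers and 1 of 2 basophil and mast cell markers tested. None of the 8 neutrophil markers tested was called there. At an unadjusted p under 0.05, *Ngp* (1.02, SE 0.38), *Ltf* (0.99, SE 0.45), and *Camp* (0.66, SE 0.27) were higher, as were *S100a8* and *S100a9*, and *Padi4* was lower (−0.90, SE 0.31). The other neutrophil markers tested did not reach it. The part of neutrophil RNA in the differences of *S100a8* and *S100a9* in pre-RPMs was not tested.

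In RPMs, *S100a9* was lower in libraries labelled *Il1rl1*-/-. It had 32, 22, 15, and 30 counts in WT and 8, 5, 3, and 3 in libraries labelled *Il1rl1*-/-, so that the groups did not overlap. The log2 fold change was −2.51 (SE 0.37, adjusted p = 0.00816), a difference of 5.69-fold, and it was the only call among the 4 members that passed the filter on low counts, when 26 of 11150 genes (0.233%) were called. Without any 1 library it ranged from −2.92 to −2.37 and was called each time, with edgeR's adjusted p up to 0.0473. The call was lost with all 24 libraries in a single fit (−2.50, edgeR's adjusted p = 0.0615). *S100a10* had 48, 59, 13, and 22 counts in WT and 17, 19, 3, and 10 in libraries labelled *Il1rl1*-/-, where each mutant-labelled library was below the WT library of the same mouse number although the groups overlapped. Its log2 fold change was −1.67 (SE 0.45, adjusted p = 0.312), and a fit that blocks on the mouse number gave −1.68 (edgeR's adjusted p = 0.00512), a call. The same number names different animals in WT and mutant-labelled libraries. *S100a13* (0.21, SE 0.26) and *S100a1* (0.22, SE 0.26) were not called and lay above 0.

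The other 4 members had too few counts in RPMs for the filter. *S100a8* had 8, 9, 13, and 5 counts in WT and 1, 2, 0, and 1 in libraries labelled *Il1rl1*-/-, with no overlap, and its log2 CPM differed by −1.96 (exact 2-sided permutation test, p = 0.0286, the smallest possible). Summed over libraries, WT held 9.80 times as much (exact 95% interval from 3.51 to 38.0, counting error only, 35 against 4 counts). *S100a11* had 4, 9, 11, and 5 counts in WT and 13, 1, 0, and 1 in libraries labelled *Il1rl1*-/- (exact p = 0.143). *S100a6* had 21, 17, 6, and 8 against 5, 17, 7, and 5 counts (exact p = 0.171), and *S100a4* 1, 3, 0, and 0 against 5, 1, 1, and 2 (exact p = 0.286), so that the latter was the one with more counts in libraries labelled *Il1rl1*-/-. Neutrophil markers moved the same way as *S100a8* and *S100a9*: their sum was 5.08 to 17.3 CPM in WT RPMs and 1.54 to 4.93 in RPMs labelled *Il1rl1*-/-, each with 6 of 10 markers above 3 counts in some library, and *Ly6g* was at 0 in every RPM library labelled *Il1rl1*-/-. None of the 10 passed the filter there, and their part in the difference of *S100a8* and *S100a9* was not tested. Other lists differed in level without a call: the 5 classical monocyte markers summed to 14.7 to 55.6 CPM in WT RPMs and to 7.24 to 27.6 in RPMs labelled *Il1rl1*-/- (2 tested, median log2 fold change −1.02). The 10 RPM markers summed to 6438 to 8199.7 CPM and, with no overlap, to 8669.7 to 8976 CPM (10 tested, median 0.22). Median log2 fold changes were also below 0 for T cell (−1.04), B cell (−0.90), NK cell (−0.84), and nonclassical monocyte markers (−0.79). They were −0.34 for erythroid, −0.23 for dendritic cell, and 0.15 for eosinophil markers, and no basophil or mast cell marker was tested. No marker of these lists was called, and the part of any list was not tested.

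**Figure D5:**
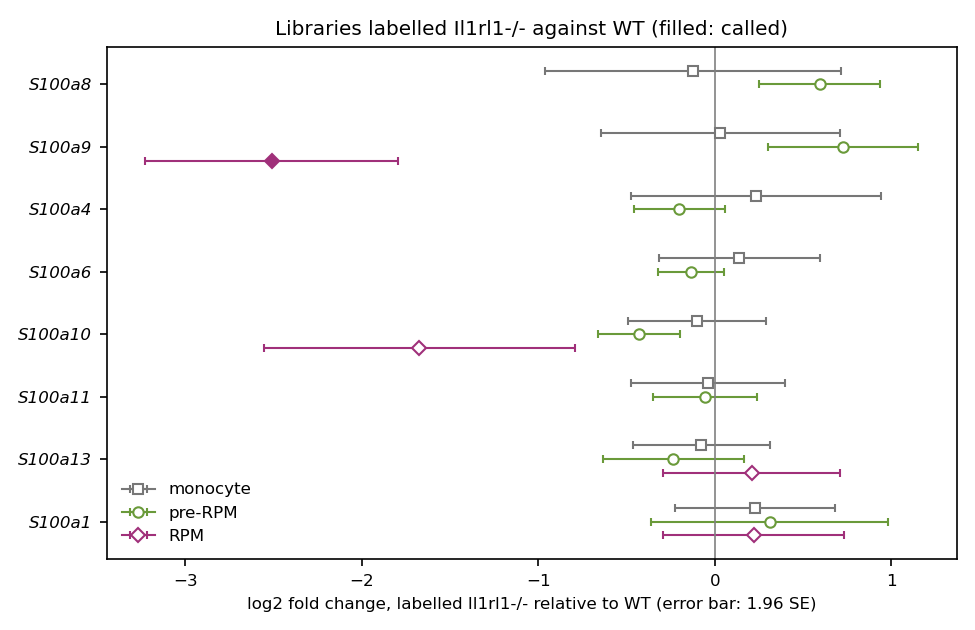
Log2 fold change of each S100 gene in libraries labelled Il1rl1-/- relative to WT (horizontal axis) in monocytes (squares), pre-RPMs (circles), and RPMs (diamonds), with error bars for the 95% interval and filled symbols for called genes. The one filled symbol is S100a9 in RPMs, and S100a4, S100a6, S100a8, and S100a11 have no RPM value because their counts were too low for the test.

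The fall from pre-RPMs to RPMs was steeper in cells labelled *Il1rl1*-/- for the calprotectin genes. *S100a8* had a log2 fold change of −3.19 in WT and −6.94 in cells labelled *Il1rl1*-/-, a difference of −3.73 (SE 0.64, interaction, adjusted p = 0.0112). *S100a9* fell by 2.65 in WT and had a log2 fold change of −5.90 in cells labelled *Il1rl1*-/-, a difference of −3.23 (SE 0.52, adjusted p = 0.00758). These were 2 of the 13 genes called of 12150 (0.107%), whereas the interaction was not called for the other 6 members, whose differences ran from −1.24 (*S100a10*, SE 0.42, adjusted p = 0.424) to 1.14 (*S100a4*, SE 0.85, adjusted p = 0.844). The RPM values of *S100a8* behind this rest on 4 counts in cells labelled *Il1rl1*-/-. With each mouse as a block, both were called, at −3.73 (edgeR's adjusted p = 0.00459) for *S100a8* and −3.24 (edgeR's adjusted p = 0.00265) for *S100a9*. In a single fit of all 24 libraries neither call held, with an adjusted p of 0.407 for *S100a8* and 0.117 for *S100a9*. From monocytes to RPMs, 0 of the 8 members were called, when 4 of 12592 genes (0.0318%) were, with −3.02 (SE 1.13, adjusted p = 0.924) for *S100a8* and −2.53 (SE 0.61, adjusted p = 0.314) for *S100a9*, and by DESeq2 *S100a9* was called (−2.55, adjusted p = 0.0197). All 3 interactions share libraries.

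Partners and receptors of S100 proteins, 16 genes, moved in both directions. From monocytes to pre-RPMs, 0 of 11 tested were called in WT and *Anxa1* of 12 in cells labelled *Il1rl1*-/-, which was lower (−1.10). From monocytes to RPMs, 5 were called higher and 5 lower of 14 in each genotype. No partner was called between genotypes in any cell type (11, 12, and 13 tested). From pre-RPMs to RPMs, 5 of the 14 tested were called higher and 3 lower in WT, and 6 higher and 4 lower in cells labelled *Il1rl1*-/-. On the side of the annexins, *Anxa1*, which S100A11 binds, changed by −5.13 on the log2 scale (SE 0.24, edgeR's adjusted p = 7.01e-10) in WT, *Anxa2*, the partner of S100A10, one of −2.30 (SE 0.13, edgeR's adjusted p = 5.21e-09), and *Ahnak*, a large scaffold bound by the latter pair, one of −4.64 (SE 0.46, edgeR's adjusted p = 1.02e-06). *Myh9*, the heavy chain of the non-muscle myosin bound by S100A4, was called lower in cells labelled *Il1rl1*-/- (−1.27, SE 0.13, edgeR's adjusted p = 5.18e-07) and not in WT (−0.92, SE 0.15), a difference between genotypes that was not tested.

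The genes of the calprotectin receptor rose from pre-RPMs to RPMs, the second step in which *S100a8* and *S100a9* fell. Over the first, from WT monocytes to pre-RPMs, *Tlr4* (0.18, SE 0.24, edgeR's adjusted p = 0.642) and *Cd14* (0.71, SE 0.37, edgeR's adjusted p = 0.217) were not called. *Tlr4* rose by 2.90 (SE 0.18, edgeR's adjusted p = 8.87e-09), its co-receptor *Cd14* by 3.38 (SE 0.16, edgeR's adjusted p = 5.65e-10), and *Ly96*, the other part of that receptor, by 1.61 (SE 0.33, edgeR's adjusted p = 0.000879) on the log2 scale between WT pre-RPMs and RPMs. *Ager* did not pass the filter, with 9 counts at most in any library. The genes for the cargo of S100A13 were called higher as well, with *Fgf1* at 0.552 ± 0.784 CPM in WT pre-RPMs and 15.0 ± 3.00 in WT RPMs and *Il1a* at 0.121 ± 0.139 and 11.8 ± 3.06 CPM (mean ± SD, n = 4), whereas *S100a13* itself fell. *Bsg*, also described as a receptor of S100A9, was called higher in cells labelled *Il1rl1*-/- (1.08, SE 0.14, edgeR's adjusted p = 9.25e-06) and not in WT (0.82, SE 0.15), a difference between genotypes that was not tested.

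No gene around the members was called between genotypes. Of 185 genes whose midpoint lies within 1000000 bases of that of a member, 26, 27, and 26 were tested in monocytes, pre-RPMs, and RPMs, and 0 were called in each by edgeR. At an unadjusted p under 0.05 stood 0, 2, and 0 of them, or 7.41% in pre-RPMs against 8.80% of all genes tested there, and their median log2 fold changes were −0.06, 0.03, and −0.01.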

How the data were processed

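RNA from 3 sorted splenic populations, from 4 WT mice and from 4 labelled *Il1rl1*-/-, was sequenced with a stranded total RNA kit. Raw read counts per gene were deposited by the authors, who used cutadapt for trimming, STAR 2.5.1 for alignment, and featureCounts 1.6.2 to count read pairs on the reverse strand over the exons of each gene name, with the Ensembl GRCm38 annotation (release 95). The submitters' processing notes name another build, whereas the coordinates in the files are those of GRCm38. The 24 ATAC-seq samples were not analysed here.

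The counts were scaled by TMM and tested in edgeR 4.0.16 (limma 3.58.1, R 4.3.3) with the quasi-likelihood test after filterByExpr, with the 2 groups compared in each fit and Benjamini-Hochberg adjustment over all genes tested. Genes were called at an adjusted p under 0.05 between genotypes and in interactions, and under 0.01 with a log2 fold change beyond 1 between cell types. Levels are CPM on TMM-scaled totals of the 24 libraries, and log2 CPM had a prior count of 2. For single values, 2-sided exact permutation tests were run in SciPy 1.17.1. The fits were tested on simulated data with 200 changed genes. DESeq2 1.42.0, other scaling, other filters, all libraries in 1 fit, the mouse number as a block, and leaving out each library were alternatives. Intervals of count ratios cover counting error only.

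The members and lists were chosen with earlier results of these data known. Named were all 8 members, *Il1rl1*, the partners called, the 3 genes most correlated with each member, and markers of neutrophils, classical and nonclassical monocytes, RPMs, NK cells, T cells, B cells, dendritic cells, eosinophils, basophils and mast cells, and erythroid cells, of which those given by value were chosen after their values were seen. Each library came from 1 mouse, and the 3 cell types of a genotype with the same number from the same mouse. The main fits between cell types and of interactions did not use this pairing. With the mouse as a block, the same members were called between cell types. Between genotypes, deviations from the group means correlated within each number at r = 0.118 to 0.452 in monocytes and 0.149 to 0.182 in RPMs, so that the numbers were taken to pair there, and at 0.0452 to 0.155 in pre-RPMs, below the criterion of 0.1 for each number. The criterion did not single out a library's own number. Mutant-labelled monocytes of mice 1 and 4, and RPMs of mice 1, 2, and 4, correlated no better with their own number than with the best other. The same number names different animals in WT and mutant-labelled libraries, so the pairing between genotypes is uncertain. The blocked values are given in pre-RPMs too, as an alternative fit only, although the numbers did not meet the criterion there. No 2 libraries of a group agreed within sampling noise (36 pairs, smallest chi-square per degree of freedom 3.85).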

Additional observations from a re-analysis of the deposited data

Results flagged for a closer look

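In RPMs labelled *Il1rl1*-/-, mouse 1 stood apart from the other 3 in *S100a9*, at 1.79 CPM when the median of the group was 0.738, and in *S100a11*, at 2.92 CPM when the median was 0.188. These were 2 of 48 groups of 4 libraries in which the gap to the nearest library, as a share of the range, exceeded Dixon's 95% critical value, and chance flags about 1 in 20 groups. The genotypes differed in the change from pre-RPMs to RPMs, by a test of the interaction in edgeR, for *S100a8* (−3.73, adjusted p = 0.0112) and *S100a9* (−3.23, adjusted p = 0.00758).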

How the results depend on the processing

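Of 603 fold changes of members under settings other than leaving out a library, 581 kept their direction and side of the threshold, 3 lost a call, 13 gained one, and 6 changed sign. Of 928 with 1 library left out, 879 kept both, 5 gained a call, and 44 changed sign, and no call was lost. The cause was not tested except where fewer members were tested.

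Members called between genotypes in pre-RPMs, where the mouse numbers did not meet the criterion for pairing, numbered 3 in place of 0 with the mouse number as a block and 3 with every gene of at least 1 count, and 0 to 1 with a library left out. Each library there correlated best with its own number, a hint from the data only. In RPMs they numbered 2 with the block, 3 with every gene, 0 with at least 10 counts in every library (2 members tested), and 0 with all 24 libraries in 1 fit. With at least 10 counts, 3 of 3 members tested were called from WT pre-RPMs to RPMs, 3 of 4 from WT monocytes to RPMs, 0 of 1 and 1 of 2 in the same steps labelled *Il1rl1*-/-, and 0 of 1 in the interaction from pre-RPMs to RPMs, which also gave 0 with all 24 libraries. The interaction from monocytes to RPMs gave 1 by DESeq2 and 3 with every gene.

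Changes of sign were all among differences without a call. *S100a8* between genotypes in monocytes was 0.0268 with the block. *S100a11* in the interaction from monocytes to pre-RPMs was 0.0022 by DESeq2 and 0.0119 with every gene. *S100a1* in the interaction from monocytes to RPMs was −0.0012 with RLE factors, −0.0035 with at least 10 counts, and −0.0029 with all 24 libraries. With a library left out, the differences between genotypes in monocytes ranged from −0.0158 to 0.59 (*S100a4*), −0.0031 to 0.36 (*S100a6*), −0.38 to 0.36 (*S100a8*), −0.19 to 0.32 (*S100a9*), −0.22 to 0.0184 (*S100a10*), −0.15 to 0.18 (*S100a11*), −0.18 to 0.0388 (*S100a13*), and −0.14 to 0.0417 (the log2 ratio of *S100a8* to *S100a9*). *S100a11* ranged from −0.13 to 0.049 between genotypes in pre-RPMs and from −0.33 to 0.0166 from WT monocytes to pre-RPMs, where *S100a1* ranged from −0.0936 to 0.27. The interactions from monocytes to pre-RPMs ranged from −0.0916 to 0.29 (*S100a1*), −0.23 to 0.10 (*S100a11*), and −0.28 to 0.0205 (*S100a13*), that of *S100a1* from pre-RPMs to RPMs from −0.29 to 0.0821, and those from monocytes to RPMs from −0.11 to 0.14 (*S100a1*) and −0.0345 to 1.99 (*S100a4*).

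Leaving out 1 library moved 6 called changes by over 1.5 times, those of *S100a4* and *S100a11* in RPMs, through WT mouse 2 or mouse 1 labelled *Il1rl1*-/-, and all stayed called. Levels scaled by RLE lay within 1 SD of the TMM levels in 48 of 48 groups, and levels over totals without *Gm42418*, which took 24.4 to 38.8% of counts, were 1.34 to 1.68 times as high.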

Other observations

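On the same chromosome as the members, *Hormad1*, a meiotic gene that starts 1995033 bases from *S100a10*, was called higher in libraries labelled *Il1rl1*-/- in monocytes, pre-RPMs, and RPMs, by 5.31, 4.96, and 8.24 on the log2 scale (edgeR's adjusted p = 0.0159, 0.000762, and 0.000234). *Golph3l* was called lower in all 3, at −2.98, −3.33, and −1.84 (edgeR's adjusted p = 0.0219, 1.56e-05, and 0.00187). Both were chosen after their values were seen.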
